A study of Mus musculus with 35 samples.

Results

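The genes described here are 9 members of the mammalian circadian clock machinery that lie beside or downstream of its core loop: Dbp, Tef, Hlf, Nfil3, Ciart, Bhlhe40, Bhlhe41, Rora and Usp2. They were chosen by name for their known roles, with earlier results of these data known. All 9 were found among the 55421 genes of the count table. Their mRNA was measured in interscapular brown adipose tissue (iBAT), the heat-producing fat depot between the shoulder blades, by sequencing the 3′ ends of polyadenylated transcripts in 1 pad from each of 35 mice. All mice were male C57BL/6J animals aged 9 to 10 weeks with no transgene. Room temperature (RT) controls stayed in the colony at 24 °C, and the other mice were kept alone, without nesting material, in an incubator at 6 °C for 6 hours or for 1, 2, 3, 4 or 5 days, with 5 mice in each of the 7 groups. Cold and single housing without a nest therefore cannot be told apart. The hour at which tissue was taken is not given in the sources used here, so the duration of cold and the time of day also cannot be told apart.

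In the core loop of the clock, CLOCK and BMAL1 (encoded by Arntl) bind E-box sequences and switch on the Per and Cry genes, whose proteins then hold CLOCK and BMAL1 back. The stabilizing loops are built on that core. DBP, TEF and HLF are the PAR bZIP activators, which bind D-box sequences, and NFIL3 (also called E4BP4) is the repressor that binds the same sequences. RORα, from Rora, activates genes with an RORE, such as Arntl, and REV-ERBα and REV-ERBβ, from Nr1d1 and Nr1d2, repress them. BHLHE40 and BHLHE41 (also called DEC1 and DEC2) compete for E-boxes, and CIART (also called CHRONO) represses CLOCK and BMAL1 directly. USP2 is a deubiquitinase whose transcript is under clock control in many tissues and whose protein acts on several clock proteins.

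Between 3846016 and 6047247 reads were counted per mouse, so that 1 read stood for 0.151 to 0.288 CPM (the normalised read count, with TMM factors). All 7 brown adipocyte markers were detected, with a summed level of 6692 to 8861 CPM in RT controls and 7949 to 15650 CPM in the cold groups. Ucp1 had a mean of 1912 CPM at RT, where the median of the sum was 7592 CPM. After 6 hours its mean was 7242 CPM and the median of the sum 12460 CPM. The median log2 fold change of the 7 markers was −0.04 after 6 hours. The 4 endothelial markers summed to 229 to 281 CPM at RT and 393 to 490 CPM after 6 hours, with single log2 fold changes from −0.61 to 1.08. The 5 macrophage markers summed to 44.9 to 104 CPM at RT and 81.9 to 215 CPM at 3 days. Skeletal muscle markers ranged from 2.31 to 948 CPM between mice, and the 5 B and T cell markers summed to at most 4.40 CPM. Their part in the results was not tested. In whole tissue, fewer cells of a type and less RNA per cell cannot be told apart.

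After 6 hours of cold, Dbp, Tef, Hlf, Bhlhe40 and Bhlhe41 were lower than at RT, while Nfil3 and Usp2 were higher. From 1 day on Ciart was lower, and Dbp, Tef, Hlf and Bhlhe41 stayed lower, whereas Bhlhe40 was not called from 2 days on. Nfil3 was the only one of the 9 genes that was higher at each of the 5 later times. A gene was called when the Benjamini-Hochberg adjusted p over all genes tested was below 0.05 in edgeR's quasi-likelihood test. After 6 hours, 2 of the 9 genes were called higher, where 21.5% of all genes tested were, and 5 were called lower, where 21.0% were. At 1 day the counts were 1 higher (18.9% of all genes) and 7 lower (17.8%). At 2 days 1 was higher (16.4%) and 5 were lower (14.7%), and the same counts at 3 days stood against 18.3% and 15.5%. At 4 days 1 gene was higher (19.4%) and 5 were lower (18.6%), and at 5 days 1 was higher (20.2%) and 6 were lower (18.6%). The share of the 9 genes called lower was thus above that of all genes at each duration, whereas the share called higher was near or below it. The median log2 fold change of the 9 genes was −0.68 after 6 hours, −1.98 at 1 day and −1.45 at 5 days, where the medians of all genes tested were −0.03, −0.02 and −0.02. All of these comparisons share the same 5 RT controls. The 9 genes were chosen with earlier results of these data known, so the shares and medians describe the set and are no test of it. With library size in place of TMM factors, 8.76% to 13.0% of all genes were called higher and 22.4% to 32.1% lower, and the median of all genes moved to between −0.25 and −0.15, while the counts of the 9 genes gained only 1 lower gene each after 6 hours, 4 days and 5 days.

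**Figure D1:**
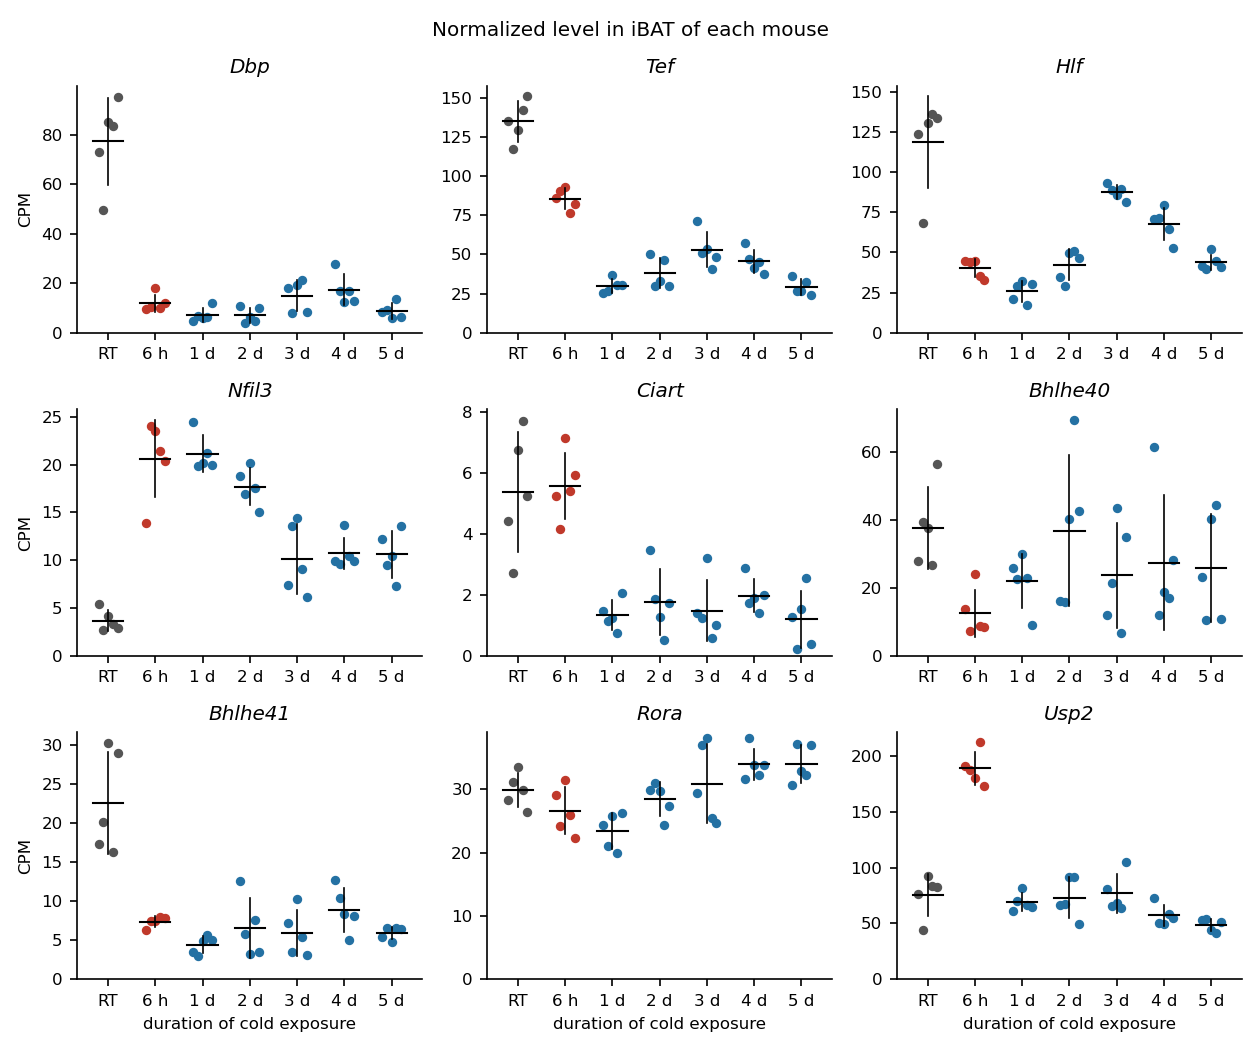
Normalized level (CPM, linear axes from 0) of each of the 9 genes in each of the 35 mice, by duration of cold exposure (RT grey, 6 hours red, 1 to 5 days blue). Points are mice, horizontal bars group means and vertical lines 1 SD (n = 5). The grey RT points of Dbp, Tef and Bhlhe41 lie above every cold-exposed mouse, those of Nfil3 lie below, and the red points of Usp2, between 173 and 213 CPM, stand above every other group.

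**Figure D2:**
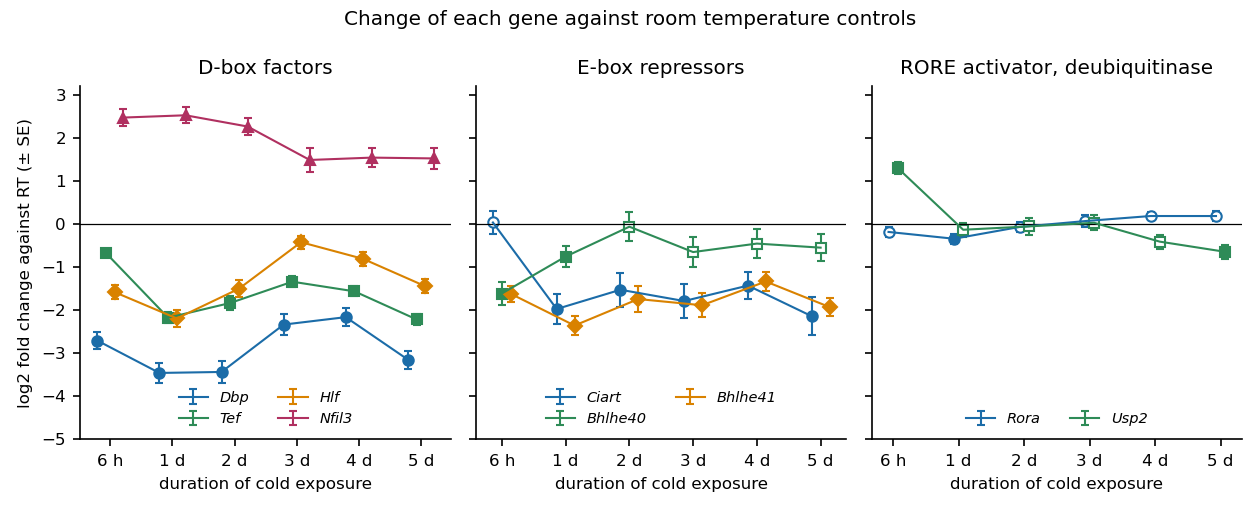
Log2 fold change against RT with its standard error (y axis) for each duration of cold (x axis), with the 9 genes in 3 panels by role. Filled symbols passed edgeR's test (adjusted p below 0.05) and open symbols did not. Nfil3 stays above 0, between 1.48 and 2.52, while Dbp, Tef, Hlf and Bhlhe41 stay below 0, and Usp2 is called higher only at 6 hours.

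Dbp, the PAR bZIP activator best known as a direct clock output, had the largest fall of the 9 genes at each of the 6 durations. The gene lies on chromosome 7 from 45705088 to 45710203 on the plus strand (GRCm38). In the RT controls it stood at 72.8, 49.6, 85.2, 83.8 and 95.2 CPM, and after 6 hours at 9.43, 10.4, 17.9, 10.1 and 11.8 CPM. At 1 day the 5 mice had 4.83, 6.63, 5.73, 6.38 and 11.9 CPM, and at 2 days they had 10.7, 3.71, 6.29, 4.73 and 9.81 CPM. The lowest RT control was therefore above every mouse of these groups. It was 18.0, 8.0, 19.2, 21.4 and 8.48 CPM at 3 days, 27.8, 17.0, 12.3, 16.6 and 12.6 CPM at 4 days and 8.38, 9.12, 5.88, 13.8 and 6.37 CPM at 5 days. No cold-exposed mouse reached the lowest control, and in the order of group means only RT and the next group, cold 4 days, differed by more than the larger of their SDs. The group mean went from 77.3 ± 17.4 CPM (SD, n = 5) at RT to 11.9 ± 3.44 after 6 hours, a log2 fold change of −2.71 (SE 0.19, edgeR adjusted p = 6.15e-09). At 1 day it was 7.10 ± 2.79 CPM, a log2 fold change of −3.46 (SE 0.22, edgeR adjusted p = 1.48e-08). The smallest fall was that at 4 days, a log2 fold change of −2.17 (SE 0.21, edgeR adjusted p = 8.11e-07), and at 5 days the log2 fold change was −3.15. The exons of Dbp overlap those of Sphk2 on the opposite strand, and the strand setting of the counting is not given, so reads of the overlap cannot be assigned with certainty. Sphk2 moved the other way, from 9.64 ± 2.70 CPM at RT to between 13.4 and 16.9 CPM in the cold group means (SD, n = 5).

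Tef and Hlf, the other PAR bZIP activators, were also lower at all 6 durations, but with time courses of their own. Tef (chromosome 15, 81802421 to 81826863, plus strand) fell in steps. Its level was 135, 117, 129, 142 and 151 CPM at RT, 85.9, 90.5, 93.3, 76.6 and 82.3 CPM after 6 hours and 25.2, 26.5, 36.9, 30.4 and 30.3 CPM at 1 day. The 3 groups did not overlap with one another. At 2 days Tef stood at 50.2, 29.9, 33.1, 46.5 and 30.0 CPM, at 3 days at 71.2, 51.1, 53.6, 40.8 and 48.3 CPM, at 4 days at 57.1, 47.3, 41.6, 45.1 and 37.5 CPM and at 5 days at 36.5, 26.5, 26.4, 32.2 and 24.3 CPM. None of these mice reached the lowest mouse of the 6-hour group. The fall at 6 hours was modest, a log2 fold change of −0.68 (SE 0.10, edgeR adjusted p = 2.49e-05), and had deepened by 1 day, a log2 fold change of −2.18 (SE 0.12, edgeR adjusted p = 4.3e-09). At 5 days it was as low, a log2 fold change of −2.22 (SE 0.12, edgeR adjusted p = 7.49e-10).

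Hlf (chromosome 11, 90336536 to 90390895, minus strand) fell faster and came back further. The RT controls had 124, 68.4, 131, 137 and 134 CPM, the second of them far below the other 4. The level was 44.5, 43.9, 44.7, 35.1 and 32.9 CPM after 6 hours, 20.8, 29.0, 32.2, 17.1 and 30.3 CPM at 1 day and 35.0, 29.0, 49.8, 50.7 and 46.7 CPM at 2 days, all below the lowest control. At 3 days it was higher again, at 93.5, 89.0, 86.1, 89.4 and 81.5 CPM, above the lowest control but below the other 4, and it was lower again, at 70.7, 71.3, 79.6, 64.6 and 52.6 CPM at 4 days and 41.7, 39.7, 51.9, 45.0 and 40.6 CPM at 5 days. The largest fall was at 1 day, a log2 fold change of −2.20 (SE 0.20, edgeR adjusted p = 4.34e-07). The fall at 3 days, a log2 fold change of −0.43 (SE 0.15, edgeR adjusted p = 0.0368), is the weakest call among the PAR bZIP genes. It was lost in 9 of the 10 fits that left out 1 mouse (edgeR adjusted p 0.0543 to 0.0971, log2 fold change −0.45 to −0.37), the exception being the fit without RT replicate 2.

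Nfil3, which encodes the repressor at the same D-box sequences (chromosome 13, 52967209 to 52981073, minus strand), moved in the opposite direction. The RT controls had 5.40, 2.71, 4.13, 3.28 and 2.90 CPM, from 14 to 28 counts per library. After 6 hours the level was 13.9, 24.0, 23.5, 21.5 and 20.4 CPM, at 1 day 24.5, 19.9, 20.2, 21.2 and 19.98 CPM and at 2 days 18.9, 16.9, 20.1, 17.6 and 15.0 CPM. From 3 days on it was lower but still above every control, with 7.47, 13.5, 14.4, 9.05 and 6.17 CPM at 3 days, 9.94, 9.64, 13.7, 10.4 and 9.92 CPM at 4 days and 12.2, 9.55, 10.5, 7.27 and 13.5 CPM at 5 days. The rise was a log2 fold change of 2.47 (SE 0.21, edgeR adjusted p = 4.93e-08) after 6 hours, and at 1 day it was a log2 fold change of 2.52 (SE 0.18, edgeR adjusted p = 4.96e-08). It was smaller at 3 days, a log2 fold change of 1.48 (SE 0.27, edgeR adjusted p = 0.000514). In the order of group means, cold 1 day, 6 hours and 2 days differed by less than their SDs, as did 4 days, 5 days and 3 days, and the groups of 2 and 4 days did not overlap.

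Because Dbp, Tef and Hlf fell while Nfil3 rose, the ratio of activator to repressor counts within a mouse changed by more than either gene alone. This ratio does not depend on the scaling between libraries. The log2 ratio of Dbp to Nfil3 was 4.37 ± 0.48 (SD, n = 5) at RT, −0.80 ± 0.34 after 6 hours and −1.63 ± 0.57 at 1 day. It was −1.42 ± 0.68 at 2 days, 0.52 ± 0.82 at 3 days, 0.63 ± 0.60 at 4 days and −0.32 ± 0.78 at 5 days. The lowest RT control stood at 3.73 and the highest cold-exposed mouse at 1.48. For Tef to Nfil3 the log2 ratio went from 5.20 ± 0.42 at RT to 2.07 ± 0.31 after 6 hours and 0.49 ± 0.30 at 1 day, and was 1.47 ± 0.47 at 5 days. The Hlf to Nfil3 ratio went from 4.98 ± 0.44 to 0.97 ± 0.40 and 0.25 ± 0.48 at the same times, and reached 3.18 ± 0.52 at 3 days. Only the changes of these ratios between groups are compared here, not their absolute size.

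**Figure D3:**
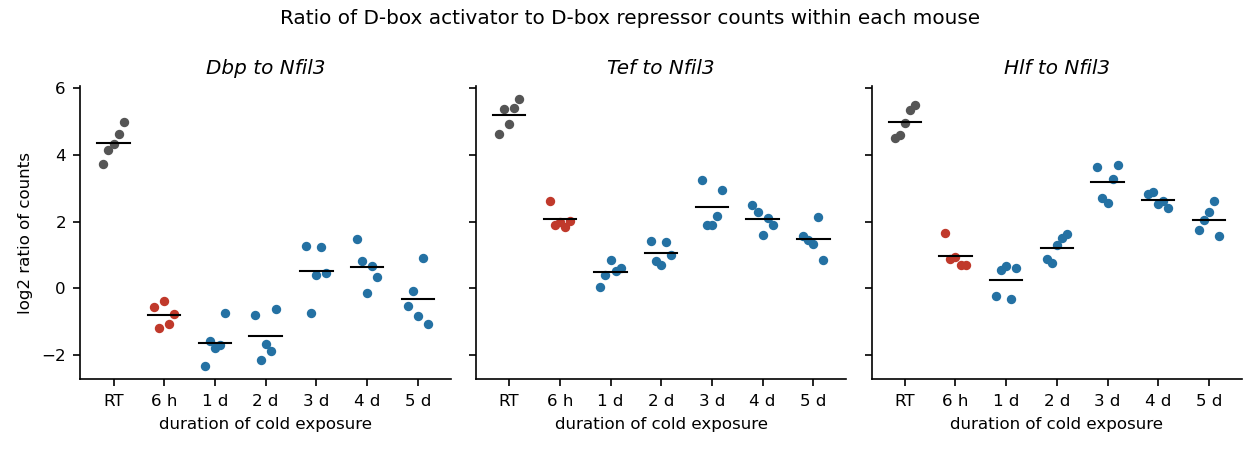
Log2 ratio of the counts of each PAR bZIP activator to those of Nfil3 within each mouse (0.5 added to both counts), by duration of cold exposure. Points are mice (RT grey, 6 hours red, 1 to 5 days blue) and bars group means. In each panel all 5 RT mice stand above all cold-exposed mice, and the lowest group mean is that of 1 day.

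The PAR bZIP genes did not fall in proportion to one another. The log2 ratio of Dbp to Tef was −0.83 ± 0.25 at RT and −2.87 ± 0.32 after 6 hours, when Dbp had fallen and Tef had moved less, and returned to −1.45 ± 0.26 at 4 days. That of Dbp to Hlf was −0.61 ± 0.13 at RT, −1.77 ± 0.38 after 6 hours, −2.64 ± 0.67 at 2 days and −2.66 ± 0.65 at 3 days. Hlf had a mean of 42.2 CPM at 2 days and of 87.9 CPM at 3 days, when it was nearer to its RT level than in the other cold groups.

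Bhlhe41 and Ciart, which encode repressors acting at E-boxes, were both lower from 1 day on, but only Bhlhe41 was already lower after 6 hours. Bhlhe41 (chromosome 6, 145858243 to 145865558, minus strand) had 17.4, 20.1, 30.2, 16.3 and 28.9 CPM at RT, 6.29, 7.39, 7.38, 8.02 and 7.77 CPM after 6 hours and 3.53, 2.97, 4.83, 5.62 and 5.05 CPM at 1 day. At 2 days it had 12.5, 5.80, 3.24, 7.61 and 3.46 CPM, at 3 days 7.23, 3.49, 10.3, 5.39 and 3.08 CPM, at 4 days 12.7, 10.3, 8.29, 5.01 and 8.11 CPM and at 5 days 5.37, 6.51, 4.79, 6.48 and 6.37 CPM. Every cold-exposed mouse was below every control. The fall was a log2 fold change of −1.63 (SE 0.19, edgeR adjusted p = 2.82e-06) after 6 hours and deepest at 1 day, a log2 fold change of −2.36 (SE 0.23, edgeR adjusted p = 8.45e-07). Among the cold groups, neighbours in the order of means differed by less than their SDs.

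Ciart (chromosome 3, 95878503 to 95882251, minus strand) had few reads, with 14 to 47 counts per library at RT and 1 to 23 from 1 day on. At RT its level was 4.43, 2.71, 6.74, 7.72 and 5.25 CPM and after 6 hours 5.24, 4.16, 7.16, 5.42 and 5.92 CPM, so these groups overlapped, and the change was a log2 fold change of 0.03 (SE 0.26, edgeR adjusted p = 0.936). At 1 day it had dropped to 1.49, 1.14, 1.25, 0.766 and 2.07 CPM, below every control, a log2 fold change of −1.98 (SE 0.34, edgeR adjusted p = 0.000279). It stayed low, with group means of 1.20 to 1.98 CPM from 2 to 5 days and log2 fold changes from −2.15 to −1.44, all called. In each of the groups from 2 to 4 days 1 mouse overlapped with the controls.

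Promoter sequences of these genes are shown because E-boxes are the sites through which CLOCK and BMAL1, BHLHE40 and BHLHE41 act. The 250 bases before the RefSeq gene start (GRCm38.p6) were searched in 9 windows of 8 of the genes, all but Bhlhe40. The E-box CACGTG, which reads the same on both strands, was in 4 of these windows, those of Ciart, Bhlhe41 and Tef (which has 2 windows), and in 6.02% of all 32851 promoter windows. Ciart held 3 copies. The variant CACGTT, in 3.85% of all windows on either strand, and the D-box forms TTATGTAA (0.819%) and TTACGTAA (0.113%) were in none of the 9. The RORE half-site AGGTCA was in the window of Nfil3 (14.0% of all windows), and the cyclic AMP response element (CRE) TGACGTCA was in that of Hlf (1.55%). A match describes the letters only and no site was measured. Stretches around the matches that lie outside annotated exons are given 5′ to 3′ on the strand of the gene, with the motif in capitals.
Ciart, chr3:95882257-95882310, minus strand: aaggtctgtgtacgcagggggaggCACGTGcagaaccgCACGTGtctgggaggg
Ciart, chr3:95882315-95882368, minus strand: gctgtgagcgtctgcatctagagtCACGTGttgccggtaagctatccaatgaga
Bhlhe41, chr6:145865559-145865597, minus strand: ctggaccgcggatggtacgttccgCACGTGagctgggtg
Tef, chr15:81811252-81811305, plus strand: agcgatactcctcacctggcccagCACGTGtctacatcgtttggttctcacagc
Hlf, chr11:90390918-90390950, minus strand: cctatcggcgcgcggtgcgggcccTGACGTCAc
The first Ciart stretch carries a pair of E-boxes a few bases apart. The 3 genes with an E-box in these windows were all lower from 1 day on, with log2 fold changes at 1 day of −1.98, −2.36 and −2.18, and so were Dbp and Hlf, whose windows held no E-box.

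Bhlhe40, the paralogue of Bhlhe41 (chromosome 6, 108660629 to 108666925, plus strand), was lower after 6 hours and 1 day and varied widely between mice in most cold groups. The RT controls had 27.9, 39.3, 37.6, 26.6 and 56.5 CPM and the mice after 6 hours 13.9, 7.39, 23.9, 8.72 and 8.51 CPM, with no overlap, a log2 fold change of −1.62 (SE 0.27, edgeR adjusted p = 0.000119). At 1 day the level was 25.8, 22.6, 30.1, 23.0 and 8.96 CPM, a log2 fold change of −0.76 (SE 0.25, edgeR adjusted p = 0.0264). This second call was lost without RT replicate 5, the highest control (log2 fold change −0.56, edgeR adjusted p = 0.0853), and with all 7 groups in one fit (edgeR adjusted p = 0.195). From 2 to 5 days the mice of a group lay far apart, with 16.0, 15.8, 40.1, 69.3 and 42.7 CPM at 2 days, 11.9, 21.3, 43.4, 6.74 and 35.0 CPM at 3 days, 61.2, 11.9, 18.8, 17.0 and 28.1 CPM at 4 days and 23.2, 10.6, 40.1, 44.4 and 10.8 CPM at 5 days. The coefficient of variation in these groups was 60.5% to 72.2%, against 31.8% at RT, 55.0% after 6 hours and 35.9% at 1 day, and no comparison passed the test, with log2 fold changes from −0.66 to −0.07 and standard errors of 0.32 to 0.35. The gene was called lower at 3 days without replicate 3 of that group (log2 fold change −1.02, edgeR adjusted p = 0.0314) and at 4 days without replicate 1 of that group (−0.99, edgeR adjusted p = 0.00513), in each case the mouse with the highest level. The spread at this n leaves room for changes of the size seen at 1 day.

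Rora encodes the activator at RORE sequences (chromosome 9, 68653786 to 69388246, plus strand). Its largest change against RT over the 6 durations was smaller than that of any other of the 9 genes. At single durations others moved less, such as Ciart after 6 hours and Usp2 at 1 day. Its level was 28.3, 31.2, 33.5, 29.9 and 26.4 CPM at RT, 29.1, 24.2, 31.5, 25.9 and 22.4 CPM after 6 hours and 24.3, 21.0, 25.8, 19.9 and 26.2 CPM at 1 day. Group means then ran from 28.5 CPM at 2 days to 34.0 CPM at 5 days, and no neighbours in the order of the 7 means differed by more than their SDs. The only call against RT was the fall at 1 day, a log2 fold change of −0.35 (SE 0.12, edgeR adjusted p = 0.0268), with all 5 mice below the lowest control. That call was lost with DESeq2 (adjusted p = 0.0644) and without a filter on low counts (edgeR adjusted p = 0.140), and in 5 of the 10 fits without 1 mouse (edgeR adjusted p 0.0535 to 0.0765). Those fits left out RT replicates 2, 3 and 4 and cold 1 day replicates 2 and 4 (log2 fold change −0.35 to −0.29).

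Usp2 (chromosome 9, 44067021 to 44095627, plus strand) rose only in the 6-hour group. The RT controls had 76.5, 43.8, 92.4, 83.4 and 82.5 CPM, and the mice after 6 hours had 192, 188, 180.0, 213 and 173 CPM, a log2 fold change of 1.30 (SE 0.15, edgeR adjusted p = 2.15e-06). At 1 day it was back at 61.5, 69.9, 82.0, 66.6 and 64.8 CPM, inside the range of the controls. It was 66.3, 67.0, 91.5, 91.4 and 49.3 CPM at 2 days, 81.2, 65.7, 68.3, 64.0 and 105 CPM at 3 days and 73.0, 50.3, 49.4, 57.9 and 55.0 CPM at 4 days, with no call. The 4-day mice were all below the upper 4 controls, and the gene was called lower there without RT replicate 2 (log2 fold change −0.56, edgeR adjusted p = 0.00208) or without replicate 1 of the 4-day group (−0.51, edgeR adjusted p = 0.0270). At 5 days all 5 mice, at 52.6, 53.6, 44.0, 41.6 and 50.8 CPM, were below these controls as well, and the gene was called lower, a log2 fold change of −0.65 (SE 0.16, edgeR adjusted p = 0.00327). RT replicate 2, at 43.8 CPM, was the lowest control here, as it was for Dbp, Tef, Hlf, Nfil3 and Ciart, but not for Bhlhe40, Bhlhe41 and Rora.

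The cold groups were also compared with each other, which leaves out the RT controls and their housing. Between 6 hours and 1 day, 6 of the 9 genes fell (7.75% of all genes tested did) and 0 rose (9.19%), by edgeR. Of these, Usp2 had been above RT and Ciart not called against RT after 6 hours. Ciart had the largest difference, a log2 fold change of −2.02 (SE 0.30, edgeR adjusted p = 0.000172). Tef followed, a log2 fold change of −1.51 (SE 0.12, edgeR adjusted p = 2.56e-07), and Usp2 came next, a log2 fold change of −1.44 (SE 0.11, edgeR adjusted p = 1.12e-07). In these 3 genes the groups did not overlap, nor did they in Hlf and Bhlhe41. The share of all genes without overlap was not computed, so this describes the named genes only. Hlf fell by 0.62 on the log2 scale (edgeR adjusted p = 0.0139). Dbp fell by 0.76 (edgeR adjusted p = 0.0417) and Bhlhe41 by 0.74 (edgeR adjusted p = 0.0279), but these calls were lost in 7 and 5 of the 10 fits without 1 mouse, at edgeR adjusted p of 0.0568 to 0.135 and 0.0549 to 0.0743. For Dbp the fits were those without 6-hour replicates 2, 3 and 5 and 1-day replicates 1 to 4 (log2 fold change −0.80 to −0.56). For Bhlhe41 they were those without 6-hour replicates 2, 4 and 5 and 1-day replicates 1 and 2 (−0.74 to −0.63). Both were also lost with all 7 groups in one fit (edgeR adjusted p = 0.0892 and 0.105), and that of Bhlhe41 without a filter on low counts (edgeR adjusted p = 0.0593). Nfil3, at 0.04 ± 0.15 (log2 fold change ± SE), and Rora, at −0.17 ± 0.13, were not called. Bhlhe40 was 0.85 ± 0.30 higher at 1 day without passing the test (edgeR adjusted p = 0.0630), and it was the only gene of the 9 with an unadjusted p under 0.05 on the higher side. DESeq2 also called 0 of the 9 genes higher. Bhlhe40 passed edgeR's test without a filter on low counts, without 6-hour replicate 3 or without 1-day replicate 5.

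Between 1 and 5 days, 2 of the 8 genes tested rose (10.7% of all genes did) and 2 fell (8.68%), by edgeR. Hlf rose, a log2 fold change of 0.75 (SE 0.16, edgeR adjusted p = 0.0028), and so did Rora, a log2 fold change of 0.53 (SE 0.12, edgeR adjusted p = 0.00682). Nfil3 fell, a log2 fold change of −0.999 (SE 0.17, edgeR adjusted p = 0.000551), and Usp2 fell as well, a log2 fold change of −0.51 (SE 0.12, edgeR adjusted p = 0.00579). In all 4 genes, already picked by the test, the groups did not overlap, and the share of all genes without overlap was not computed. Dbp, Tef, Bhlhe40 and Bhlhe41 were not called, at 0.30 ± 0.27, −0.04 ± 0.14, 0.21 ± 0.35 and 0.43 ± 0.24 (log2 fold change ± SE). Ciart did not pass the filter on low counts, and its difference of −0.31 in mean log2 CPM had p = 0.532 in an exact two-sided permutation test over 252 splits, which can give no p below 0.00794.

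Genes of the core loop changed as well. Of its 11 genes, 10 could be tested, and Npas2 had too few counts. Arntl, which encodes BMAL1, rose the most of the 9 genes and the 10 core genes, from 1.16, 1.16, 1.30, 1.48 and 2.17 CPM at RT to 15.2, 17.8, 16.1, 22.4 and 15.7 CPM after 6 hours, a log2 fold change of 3.53 (SE 0.22, edgeR adjusted p = 1.56e-09). At RT it had only 6 to 12 counts per library, so the size of this rise rests on few reads. Its rise shrank to log2 fold changes of 3.09 at 1 day, 2.29 at 3 days and 1.91 at 5 days, all called. Per3, a period gene, fell at all 6 durations as Dbp did, with log2 fold changes of −2.68 after 6 hours and −2.98 at 5 days. Nr1d1, for the RORE repressor REV-ERBα, had its largest fall after 6 hours, with 27.0, 33.3, 57.4, 40.7 and 37.8 CPM at RT and 6.29, 6.24, 5.14, 4.72 and 4.44 CPM after 6 hours, a log2 fold change of −2.90 (SE 0.20, edgeR adjusted p = 5.52e-09), and it was 2.35 ± 0.22 (log2, SE) higher at 1 day than after 6 hours. Like Usp2, the period genes Per1 and Per2 rose after 6 hours, by 1.06 and 1.26 on the log2 scale, and Per2 was lower than at RT at 1 day (log2 fold change −1.44). Cry1 rose by 1.80 after 6 hours. At all 6 durations the group mean was above that of RT for Clock (43.0 CPM at RT, 52.1 to 65.9 CPM in the cold) and Cry1 (8.81 and 12.5 to 31.3 CPM). It was below that of RT for Cry2 (19.7 and 7.85 to 15.6 CPM) and Nr1d1 (39.2 and 5.36 to 29.8 CPM). In all, 5 core genes were called higher and 3 lower after 6 hours, 3 and 5 at 1 day and at 2 days, 2 and 4 at 3 days and at 4 days, and 3 and 6 at 5 days. For 10 genes, the shares of all genes called higher, 16.4% to 21.5% over the 6 durations, and lower, 14.7% to 21.0%, are near the 2 higher genes at 3 and 4 days.

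**Figure D4:**
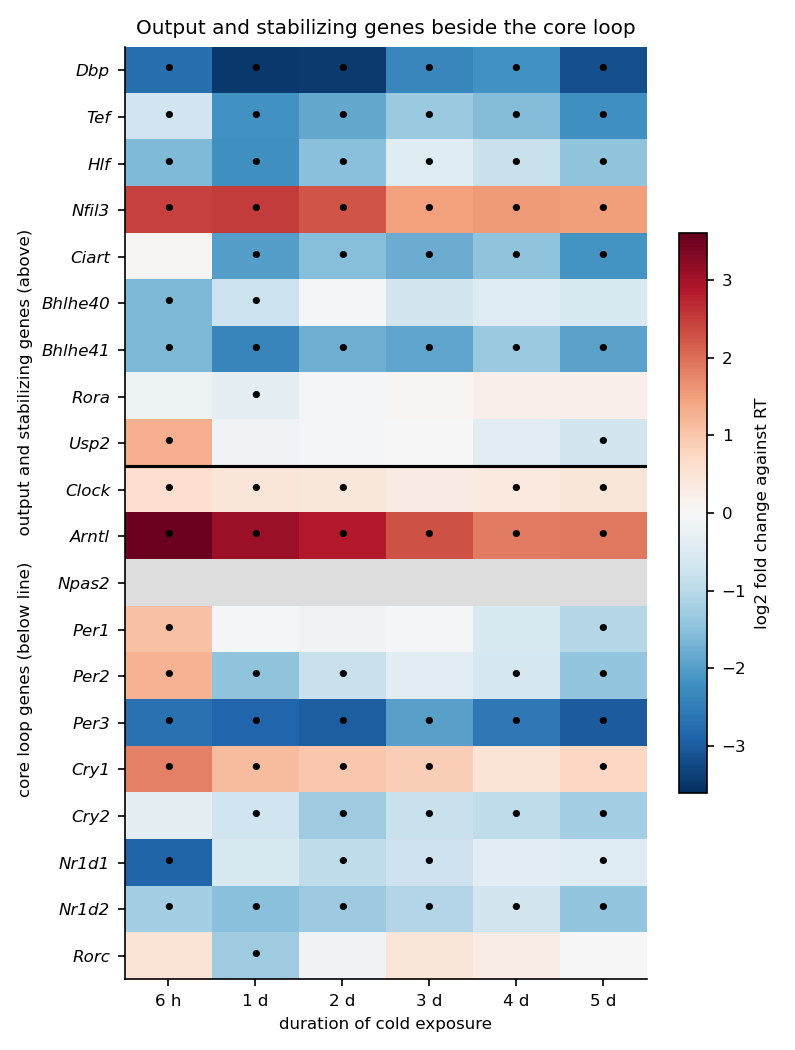
Log2 fold change against RT (colour, red higher and blue lower) of the 9 genes (above the line) and the 11 core loop genes (below) at each duration of cold. Dots mark calls by edgeR (adjusted p below 0.05) and grey cells were not tested (Npas2). Among the genes of one colour in all 6 columns, Nfil3 and Arntl are red and Dbp, Tef, Hlf, Bhlhe41, Per3 and Nr1d2 are blue. Usp2, Per1 and Per2 are red at 6 hours.

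Genes around the clock that were listed with the 9 moved as follows, where 21.5% of all genes were called higher and 21.0% lower after 6 hours, 18.9% and 17.8% at 1 day and 20.2% and 18.6% at 5 days. Of 6 genes for enzymes that modify clock proteins, 3 were called higher after 6 hours and the others were not called. The casein kinases Csnk1e and Csnk1d rose by 0.47 and 0.39, and Fbxw11, a ubiquitin ligase subunit, rose by 0.43 (log2). At 5 days, 2 were higher and 1 lower, counts near those shares. Of 6 described clock or PAR bZIP outputs, 4 were called lower after 6 hours and the others were not called: Ppara, a lipid-sensing nuclear receptor, by −1.19, Alas1, which starts haem synthesis, by −0.97, Wee1, a cell cycle kinase, by −0.65, and Nampt, of NAD synthesis, by −0.54 (log2 fold changes). At 5 days 5 were lower and 1, Pdxk, was higher. Wee1 was lower at all 6 durations, most at 1 day (−2.002). Among 5 genes that respond to cyclic AMP, 4 could be tested after 6 hours and all were called higher, with log2 fold changes of 2.58 for Atf3, 2.43 for Sik1, 2.08 for Nr4a1 and 1.33 for Crem. At 1 day Sik1 was called, 1 of 3 tested. Atf3 did not pass the filter on low counts there, but its level, 0.736 ± 0.406 CPM at RT and 4.65 ± 1.10 CPM after 6 hours, was 4.29 ± 1.85 CPM at 1 day (SD, n = 5), with no overlap with the controls. Among 6 genes that respond to glucocorticoids, 4 were higher after 6 hours and the others were not called: Cdkn1a by 3.72, Sgk1 by 1.88, Fkbp5 by 0.81 and Tsc22d3 by 0.57 (log2). At 5 days 3 were higher and 2 lower.

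Some pairs of the 9 genes were related over the 35 mice mostly through the groups, and others were not. Pearson's r of log2 CPM, given as a description because all points share the libraries and the groups, was −0.79 for Dbp and Nfil3. Within groups, with each group's mean removed, it was −0.09. For Dbp and Arntl it was −0.80 over all mice, −0.62 within groups and −0.72 within the cold groups alone, and for Bhlhe41 and Arntl −0.73 and −0.52. Mice with more Dbp than others of their group thus tended to have less Arntl, whereas no such relation was seen for Nfil3. Among the 36 pairs of the 9 genes the median r was 0.19 over all mice and 0.14 within groups. For some pairs r was stronger within groups, as for Hlf and Usp2 (−0.06 over all mice, 0.39 within groups). Within groups 1 pair, Tef and Bhlhe41, exceeded 0.5 (0.51).

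**Figure D5:**
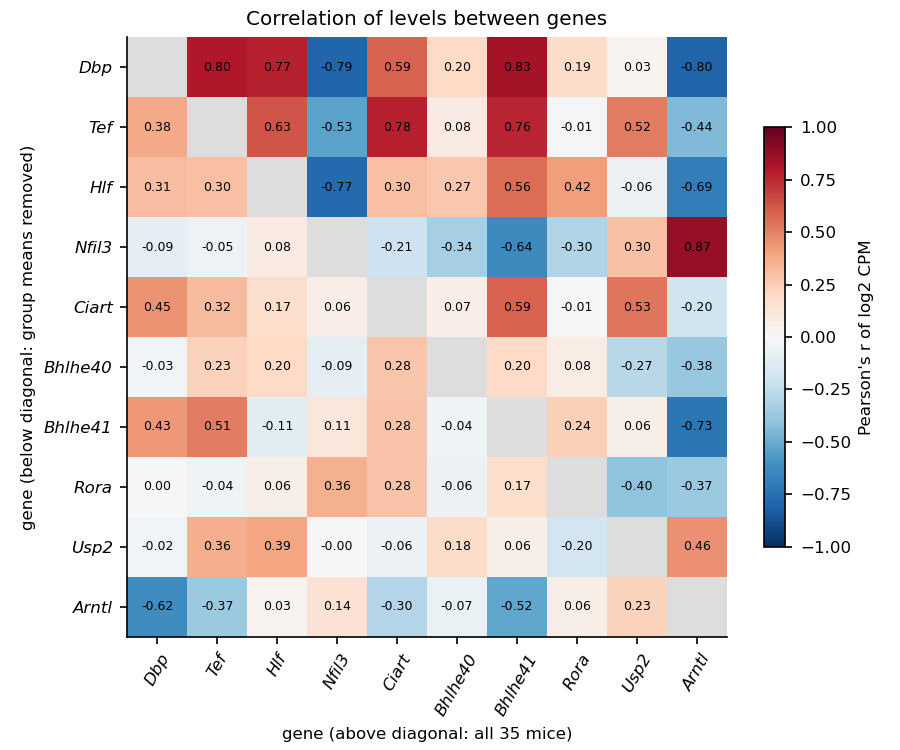
Pearson's r of log2 CPM between the 9 genes and Arntl, over all 35 mice (above the diagonal) and with group means removed (below the diagonal); the colour scale runs from −1 to 1. Dbp, Tef, Hlf and Bhlhe41 are red with each other above the diagonal and paler below it, and the bottom row shows Dbp at −0.62 with Arntl.

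The genes whose levels were most like those of each of the 9 were taken from 8889 genes with a mean of at least 20 counts, by Pearson's r over the 35 mice. Ciart, with fewer counts, was left out. For Dbp these were Per3 (r = 0.90) and Nr1d2 (0.86), and for Bhlhe41 they were Nr1d2 (0.85) and Dbp (0.83). For Usp2 they included Per2 (0.84), which had an r of 0.47 within groups. Tef was closest to Enpp2 (0.89) and Zfp703 (0.87), Hlf to Fcho2 (0.81) and Tmtc4 (0.81), and Nfil3 to Gmpr (0.94) and Cars2 (0.92). Bhlhe40 had no close match, with A530016L24Rik at 0.65 and Mturn at 0.63, and Rora had Cds1 at 0.72 and Calcoco1 at 0.72. With group means removed, r in the same order was 0.45 and 0.49 for Dbp and 0.60 and 0.43 for Bhlhe41. It was 0.43 and 0.25 for Tef, 0.38 and 0.33 for Hlf and 0.52 and 0.28 for Nfil3. For Bhlhe40 it was 0.55 and 0.59, and for Rora 0.37 and 0.41. A clock gene was thus among the nearest 2 for Dbp, Bhlhe41 and Usp2 and for none of the other 5.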

How the data were processed

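RNA from 1 iBAT pad of each of 35 mice was sequenced with the QuantSeq 3′ FWD kit, 5 mice per group. Per the labels, reads were aligned with STAR 2.6.1d to GRCm38 and counted per gene with HTSeq 0.11.2. The authors deposited the counts as whole numbers without normalization, and the strand setting was not given in the sources used here. A kit that reads transcript ends gives counts that do not scale with transcript length. Levels were tested between groups within a gene. For ratios of counts between genes only the change between groups was compared, and sums of markers were given as a description.

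From these counts, each cold duration was compared with RT, 1 day with 6 hours and 5 days with 1 day, each in its own fit over all genes with edgeR 4.0.16 in R 4.3.3 (quasi-likelihood test after filterByExpr and TMM, with a Benjamini-Hochberg adjusted p below 0.05 for a call). CPM used TMM factors, and log2 CPM a prior count of 2. Pearson correlations, ratios and promoter searches were computed in Python 3.11.15. Symbols, positions and exons came from GENCODE annotation and promoter windows from RefSeq, both of the GRCm38 build that the files use. All 9 genes are named because all were chosen by name. For each of them averaging 20 counts or more, the 2 most similar genes were also named, and for each gene list up to 4 called genes with the largest change after 6 hours. One gene named by this rule is not reported here. The members and lists were chosen with earlier results of these data known. A gene that did not pass the filter was tested with an exact permutation test. The fits were tested on simulated data.

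Libraries held 3846016 to 6047247 counts, so that 1 read is 0.151 to 0.288 CPM. Alternatives were RLE size factors, library size only, no filter on low counts, DESeq2 1.42.0, all 7 groups in one fit, a replicate block, leaving out each mouse and, added after seeing the data, leaving out mitochondrial genes and Gm42418, which held 33.6% to 46.2% and 7.81% to 16.3% of the counts.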

Additional observations from a re-analysis of the deposited data

Results flagged for a closer look

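Of the 63 sets of 5 mice formed by the 9 genes and 7 groups, 5 held a mouse whose gap to the nearest of the others exceeded 0.71 of the range of its group, and chance alone gives such a mouse in about 1 of 20 sets. Dbp was highest at 17.9 CPM in replicate 3 of the 6-hour group and at 11.9 CPM in replicate 5 of the 1-day group. Hlf was lowest at 68.4 CPM in RT replicate 2. Nfil3 was highest at 24.5 CPM in replicate 1 of the 1-day group and at 13.7 CPM in replicate 3 of the 4-day group.

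Levels differed between cold groups, by edgeR's test of one cold group against the other, in 10 cases. From 6 hours to 1 day the log2 fold changes were −2.02 for Ciart, −1.51 for Tef, −1.44 for Usp2, −0.76 for Dbp, −0.74 for Bhlhe41 and −0.62 for Hlf. From 1 to 5 days they were −0.999 for Nfil3, 0.75 for Hlf, 0.53 for Rora and −0.51 for Usp2. The calls of Dbp and Bhlhe41 were lost in 7 and 5 of the 10 fits without 1 mouse. Duration of cold and time of day cannot be told apart in these differences.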

How the results depend on the processing

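Of the 71 log2 fold changes tested for the 9 genes, 50 were called, and 45 of these were called in every fit that left out 1 mouse. Of all genes tested, from 1725 of 10181 (1 day against 6 hours) to 4505 of 10593 (6 hours against RT) were called in a comparison. How many of those held in every such fit was not computed. The number of genes higher after 1 day than after 6 hours was 0, and became 1 (Bhlhe40) without a filter on low counts and with the replicate block, and ran from 0 to 1 over the fits that left out 1 mouse. With library size only, 4 values that were not called changed sign, to −0.16 for Ciart after 6 hours, −0.072 for Rora and −0.13 for Usp2 after 3 days and −0.049 for Rora after 5 days. Leaving out 1 mouse moved 8 uncalled values across 0, namely −0.14 to 0.21 for Ciart after 6 hours, −0.42 to 0.13 for Bhlhe40 and −0.22 to 0.054 for Usp2 after 2 days, −0.024 to 0.13 for Rora and −0.12 to 0.10 for Usp2 after 3 days, −0.067 to 0.10 for Nfil3 from 6 hours to 1 day, and −0.14 to 0.062 for Tef and −0.068 to 0.42 for Bhlhe40 from 1 to 5 days. Leaving out 1 mouse also gained calls that were not made otherwise, in 2 fits each for Bhlhe40 from 6 hours to 1 day and Usp2 after 4 days and in 1 fit each for Bhlhe40 after 3 and 4 days. The cause was not tested.

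Same-numbered mice of different groups did not deviate together (mean r −0.01, and 36 of 40 pairs under 0.1), so the number was not taken to pair mice. With the replicate block, Rora after 1 day (edgeR adjusted p = 0.0501) and Hlf after 3 days (0.0611) were not called, while Bhlhe40 was called after 3 days (0.0128) and from 6 hours to 1 day (0.0156), and no other call of the 9 genes changed. Without TMM factors, Rora after 6 hours, Usp2 after 4 days and Bhlhe40 after 5 days were called lower (edgeR adjusted p = 0.0146, 0.0171 and 0.0392). Without a filter on low counts, Bhlhe41 from 6 hours to 1 day was not called (0.0593), and Bhlhe40 after 3, 4 and 5 days and Usp2 after 4 days were called lower (edgeR adjusted p = 5.59e-05, 0.0116, 0.00241 and 0.0117), and Usp2 after 4 days also with all groups in one fit (0.0402). With 1 to 23 counts per library from 1 day on, changes of Ciart among the cold groups are limited by depth.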
